A study of Mus musculus with 20 samples.

Results

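The effect of methamphetamine (Meth) in mice that carried no Tat transgene, measured as Tat-/Meth against Tat-/Sal, was examined in genes that the array measured with more than 1 probe. HIV-1 Tat is the viral transactivator. Of the 20 arrays of the study, the 10 arrays of these groups were compared, 5 mice in each group and 1 array per mouse. A probe qualified where the scanner software marked it as well above background on all 10 arrays, which held for 28157 probes, and a gene was a member where at least 2 different probes of it qualified, which held for 3674 of the 20968 gene symbols on the array. The members rested on 8085 probes: 3062 genes had 2, 522 had 3 and 90 had 4 or more, up to 7. A change in a gene was reported only where each of its probes passed the test in the same direction.

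Per the labels, all mice were males on a C57BL/6J background aged 6 to 7 weeks, and both groups carried the GFAP promoter-controlled Tet-binding protein, expressed in astrocytes, without the TRE promoter-Tat transgene. Every animal, controls included, received 100 mg/kg of doxycycline daily for 7 days, and on 7 days either 2 mg/kg of Meth (Tat-/Meth) or 0.9% saline (Tat-/Sal). The other 10 arrays, Tat+/Meth and Tat+/Sal, came from mice of the same line that also carried the Tat transgene, under the same injections. The labels name the tissue as a left brain hemisphere taken 24 hours after the last injection, whereas the methods of the study name the caudate putamen, older animals, an abstinence period and a single Meth challenge given to all animals, saline group included. In the array values, all 15 striatal markers were well above background on all 10 arrays, against 12 of 19 markers of cortex and hippocampus. Neurod1 passed on no array and Slc17a7, the vesicular glutamate transporter of cortical neurons, on 9. Tbr1, Fezf2, Cux2 and Neurod2 of the same list passed on all 10. Of 18 markers of thalamus, midbrain and hypothalamus, 12 were well above background on all 10 arrays. Which tissue was taken was not tested, and a hemisphere also contains striatum.

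Meth enters dopamine terminals through the dopamine transporter, releases dopamine from its vesicular stores and, on repeated injection, gives a growing locomotor response called sensitization. The medium spiny neurons of the striatum receive that dopamine through D1 and D2 receptors, and their transcription changes through cAMP, AP-1 and immediate early genes. Serotonin receptors, glutamate and GABA receptors, mitochondrial enzymes, the proteasome and chromatin enzymes are among the systems studied in animals exposed to Meth. On an oligonucleotide array a gene is read through short probes, each complementary to 1 stretch of the transcript, so that probes of 1 gene can read different transcripts of it or share sequence with other genes.

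The groups lay on different slides. All 5 Tat-/Meth arrays were on slide 1, which held no other group, the 5 Tat-/Sal arrays were on slide 2 with 3 Tat+/Meth arrays, and the rest were on slide 3, so slide and treatment cannot be told apart in the comparison of Tat- mice. Slide 1 stood apart in measures that involve no mouse RNA. The net signal of the negative controls lay between 44.7 and 92.3 on the Tat-/Meth arrays and between 21.5 and 25.2 on the Tat-/Sal arrays (exact two-sided permutation test, p = 0.00794, the smallest that 5 against 5 allows, and 0.00992 after Benjamini-Hochberg over 5 array measures). The slope over the spike-in RNAs, added to each sample in known amounts, was 0.841 to 0.947 against 0.991 to 1.04 (the same exact p). The 75th percentile was 9.64 to 9.79 against 9.92 to 10.3 on the log2 scale, which the scaling removed. Unlike the controls, the 75th percentile is taken over the gene probes and so does involve mouse RNA. After scaling, the 10 spike-ins still differed by -0.89 to 0.96 log2 between the groups, 4 of them with no overlap and higher on the Tat-/Meth arrays and 2 with no overlap and lower, against -0.21 to -0.07 between Tat+/Meth and Tat+/Sal. The 0.96 was that of a faint spike-in whose groups overlapped (means of 3.72 in Tat-/Meth and 2.75 in Tat-/Sal). Among the spike-ins without overlap the differences ran from -0.89 to 0.66. Tat-/Meth replicate 5 had the highest negative-control signal (92.3) and the lowest slope (0.841) of all 20 arrays. The part of these differences in the gene values was not tested.

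**Figure D1:**
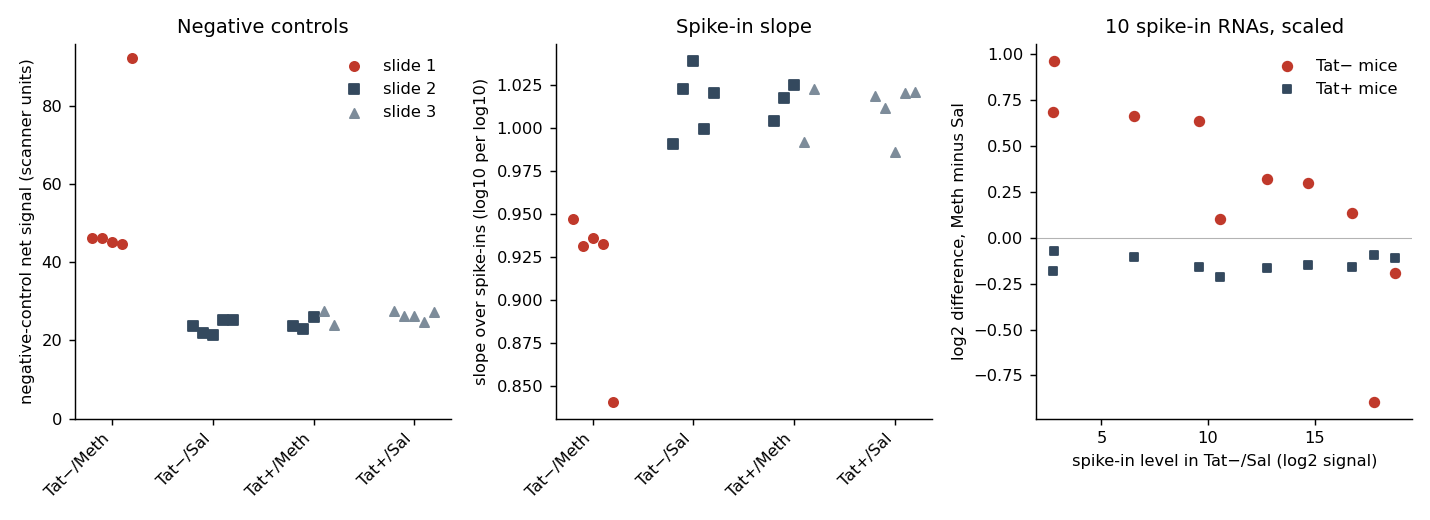
Negative-control net signal (left, scanner units) and slope over the spike-ins (middle) for each of the 20 arrays by group, with marker shape for the slide, and the scaled log2 difference between Meth and Sal for each of the 10 spike-ins against its level in Tat-/Sal (right). The 5 Tat-/Meth arrays of slide 1 lie above 44 in negative-control signal and below 0.95 in slope, apart from the other 15, and the spike-in differences in Tat- mice run from -0.89 to 0.96. The 0.96 is that of a faint spike-in whose groups overlap.

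Probe by probe, Meth was associated with many differences in Tat- mice. Of the 28157 qualifying probes, 8529 were higher (30.3%) and 5257 lower (18.7%) in Tat-/Meth (limma, Benjamini-Hochberg adjusted p under 0.05), and above 2-fold 111 were higher (0.394%) and 1968 lower (6.99%). Required on every probe of a gene, the picture changed. Among the 3674 member genes, 464 were higher on every probe (12.6%) and 59 were lower on every probe (1.61%). Another 308 genes (8.38%) had probes that passed in opposite directions, 1862 (50.7%) had some probes that passed in 1 direction and others that did not pass, and in 981 (26.7%) no probe passed. At above 2-fold on every probe, no gene was higher (0%) and 11 were lower (0.299%). At above 1.5-fold the counts were 8 higher and 23 lower.

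The direction of the smaller changes moved with the scaling. The median over member genes of the mean log2 fold change was 0.14 after the 75th percentile scaling, 0.26 with each array scaled to its median, and -0.28 without scaling, where no gene was higher on every probe and 704 were lower, 3 of the 464 among them. With quantile normalization 531 were higher and 55 lower, with cyclic loess 225 and 113, and with each array calibrated on its spike-ins 889 and 72. The share of agreed genes that were higher was 88.7% in the comparison as reported, 92.5% with the spike-in calibration, 66.6% with cyclic loess and 0% without scaling. Of the 464 higher genes, 275 had every probe above the median gene by more than the size of that median. Of the 59 lower genes, 58 were lower on every probe with cyclic loess, 50 with quantile normalization, 36 with the spike-in calibration and 23 with scaling to the median.

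The calls by number of probes were as follows, where each further probe had to pass as well. Of the genes with 2 probes, 430 were higher and 50 lower on both, and 206 had probes in opposite directions. Of the 522 with 3 probes, 32 were higher, 9 lower and 76 opposite. Of the 90 with 4 or more, 2 were higher, none lower and 26 opposite.

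The large falls were mostly those of single probes. Among probes of member genes, 2823 were higher (34.9%) and 955 lower (11.8%), and 206 were lower by more than 2-fold (2.55%) and 20 higher (0.247%). The 206 belonged to 189 genes, and in 11 of these (5.82%) every probe fell that far. The other 245 probes of those genes had a median log2 fold change of 0.09, near the median of all qualifying probes of 0.12. Of these, 43 (17.6%) passed as lower, 68 (27.8%) as higher, and 134 (54.7%) did not pass. Of the 11 genes with a probe lower by more than 8-fold, none had a second probe that fell as far, and the median of their other 14 probes was 0.16. The 20 probes above 2-fold higher lay in 20 genes, none of them with every probe above 2-fold.

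Over the 3062 genes with 2 probes, the log2 fold changes of the probes had a Pearson r of 0.13 and a Spearman rho of 0.10 (across genes, which are not independent replicates, and with both probes read on the same arrays), and had the same sign in 61.5%. The median gap between them was 0.26 log2 and the 90th percentile 0.77. For the effect of Meth in Tat+ mice the same pairs of probes had an r of 0.29, a rho of 0.28, a median gap of 0.11 and a 90th percentile of 0.31. Pairs that the array design ties to 1 accession (2707) had an r of 0.13 and pairs from different accessions (355) an r of 0.08.

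**Figure D2:**
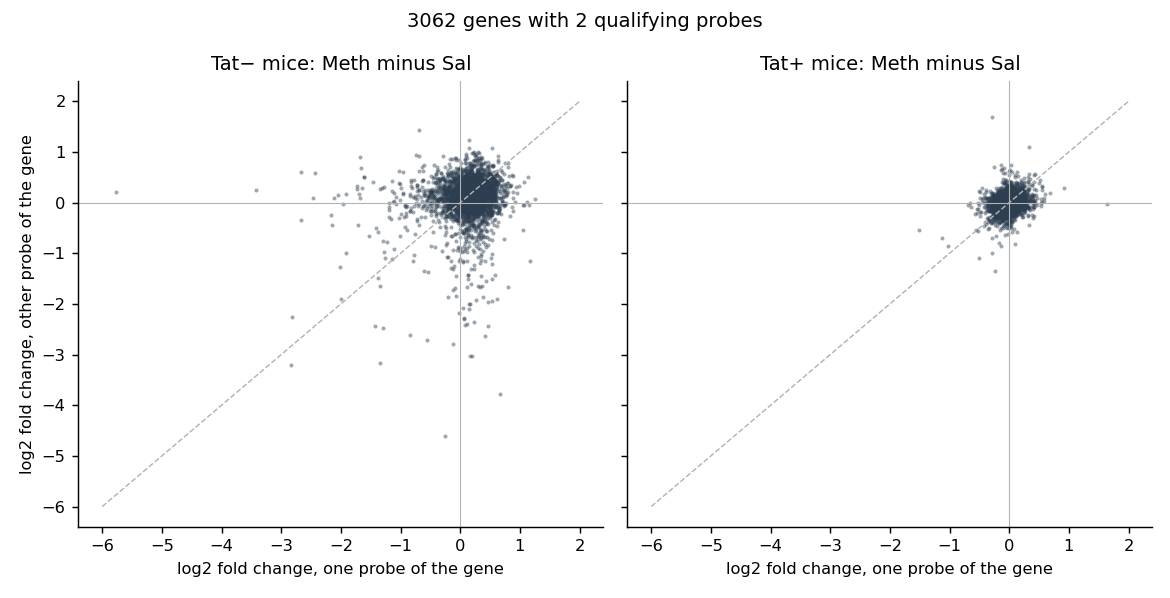
Log2 fold change of Meth over saline on either probe of the 3062 genes with 2 qualifying probes, in Tat- mice (left) and Tat+ mice (right); each point is 1 gene and the dashed line marks equal values. In Tat- mice the points with a large fall lie along the axes, with 1 probe low and the other near 0 (r = 0.13), and few lie near the dashed line; in Tat+ mice the points stay closer to 0 (r = 0.29).

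The gap was widest in 6 genes. Bard1, the partner of Brca1 in an E3 ubiquitin ligase, had probe 1 at 7.66, 7.79, 7.51, 7.61 and 7.68 in the Tat-/Meth mice and 13.53, 13.01, 13.56, 13.52 and 13.53 in the Tat-/Sal mice (scaled log2 signal), a difference of -5.78 ± 0.28 (SE, adjusted p = 1.02e-11). Its probe 2 was at 6.64, 7.08, 7.10, 6.77 and 7.33 in the Tat-/Meth mice and 6.97, 6.92, 6.27, 7.18 and 6.57 in the Tat-/Sal mice, a difference of 0.20 ± 0.18 (SE, adjusted p = 0.378). The groups lay far apart on the first probe and overlapped on the second. Wdfy1, an adaptor of Toll-like receptor signalling, had log2 fold changes of -5.66, 0.50 and 0.46, of which the first alone passed (adjusted p = 8.14e-13). Bmp1, a procollagen-cleaving protease, had 0.06, 0.15 and -4.28. Dcaf12l2, a putative substrate receptor of cullin ligases, had 0.66 and -3.77, Krtap5-5, a keratin-associated protein of hair, had -0.26 and -4.62, and Lst1, a leukocyte transcript, had -3.43 and 0.25. In each of these 6 genes a probe fell by more than 8-fold while another rose or did not pass.

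Groups without overlap on any probe were found for 39 member genes in the direction of a fall (1.06%). The 12 of the agreed genes among them with the largest agreed size were taken for description. Of the 12 genes, 11 are described here.

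Transcription factors were among them. Nhlh1, a basic helix-loop-helix factor of developing neurons, had probe 1 at 7.75, 8.50, 8.67, 8.49 and 9.05 in the Tat-/Meth mice and 9.91, 10.04, 9.60, 10.17 and 9.46 in the Tat-/Sal mice (-1.35 ± 0.29 SE, adjusted p = 0.000722) and probe 2 at 6.13, 6.59, 6.32, 6.14 and 6.75 in the Tat-/Meth mice and 9.47, 9.56, 9.56, 9.49 and 9.65 in the Tat-/Sal mice (-3.16 ± 0.29 SE, adjusted p = 5.37e-08). Both probes separated the groups, the second by far more. The zinc finger genes Zfp956 and Zfp981 fell by similar amounts on their probes: -1.39 and -1.49 for Zfp956 (largest adjusted p = 3.16e-05) and -1.15 and -1.11 for Zfp981 (largest adjusted p = 0.00456). Mouse zinc finger genes of this kind lie in clusters of similar copies, and whether the probes share signal with relatives was not tested.

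Regulators of the cytoskeleton, vesicles and protein turnover were also among the 12. Septin1, a GTP-binding filament protein, read 6.30, 6.42, 6.18, 6.09 and 7.06 in the Tat-/Meth mice and 9.26, 8.96, 9.31, 9.21 and 9.45 in the Tat-/Sal mice on probe 1 (-2.83 ± 0.15 SE, adjusted p = 2.4e-11) and fell by 2.26 on probe 2. Tbc1d22b, of a family of GTPase-activating proteins for Rab, had -2.02 and -1.27, and on probe 2 the Tat-/Meth mice lay between 8.58 and 8.85 except replicate 5, at 9.65. Fbxo39, an F-box protein of ubiquitin ligases, had -1.92 and -0.998, and Tmem40, a transmembrane protein, -1.28 and -0.97. These 4 genes were lower in every Tat-/Meth mouse than in any saline mouse.

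The largest agreed fall belonged to a gene known from skin. Lce1a2, a late cornified envelope protein of the epidermis, read 11.68, 11.90, 11.68, 11.73 and 12.01 in the Tat-/Meth mice and 14.56, 14.54, 14.77, 14.55 and 14.78 in the Tat-/Sal mice on probe 1, -2.84 ± 0.18 (SE, adjusted p = 2.88e-10), and 9.01, 9.03, 9.16, 9.19 and 9.38 in the Tat-/Meth mice and 12.39, 12.37, 12.30, 12.42 and 12.33 in the Tat-/Sal mice on probe 2, -3.21 ± 0.27 (SE, adjusted p = 1.28e-08), which are falls of 7.17-fold and 9.25-fold. Prpmp5, a proline-rich protein of saliva, had -1.29 and -2.47, Slfn9, of the Schlafen family, had -1.34 and -1.64, and Gm19668, a predicted gene, had -2.002 and -1.90. Lce, Schlafen and proline-rich genes also have close copies in the genome, and whether the probes share signal with them was not tested.

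The 11 genes above 2-fold on every probe were 10 of the 12, without Fbxo39 and Tmem40, and Arhgap28, named here after its values were seen. Its probes were at -1.27 and -1.09, with groups that overlapped on at least 1 probe. In 10 of the 11, the 5 Tat-/Meth arrays were below all of the other 15 arrays on every probe. The 11 genes were chosen by their fall in these arrays, which favours this. Their Meth effects in Tat+ mice, averaged over probes, were between -0.13 and 0.35, and the level in Tat+/Meth minus that in Tat-/Sal had a median of 0.27. Of all 59 lower genes, 28 lay below all of the other 15 arrays on every probe, against 28 of all 3674 member genes. Of the 464 higher genes, 127 lay above all of the other 15, against 131 of all member genes. The other 15 arrays include the 5 Tat-/Sal arrays by which the 59 and 464 genes were called. That choice by itself places nearly all such genes among the called ones. The other 15 arrays also include mice that received Meth, all on slides 2 and 3.

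**Figure D3:**
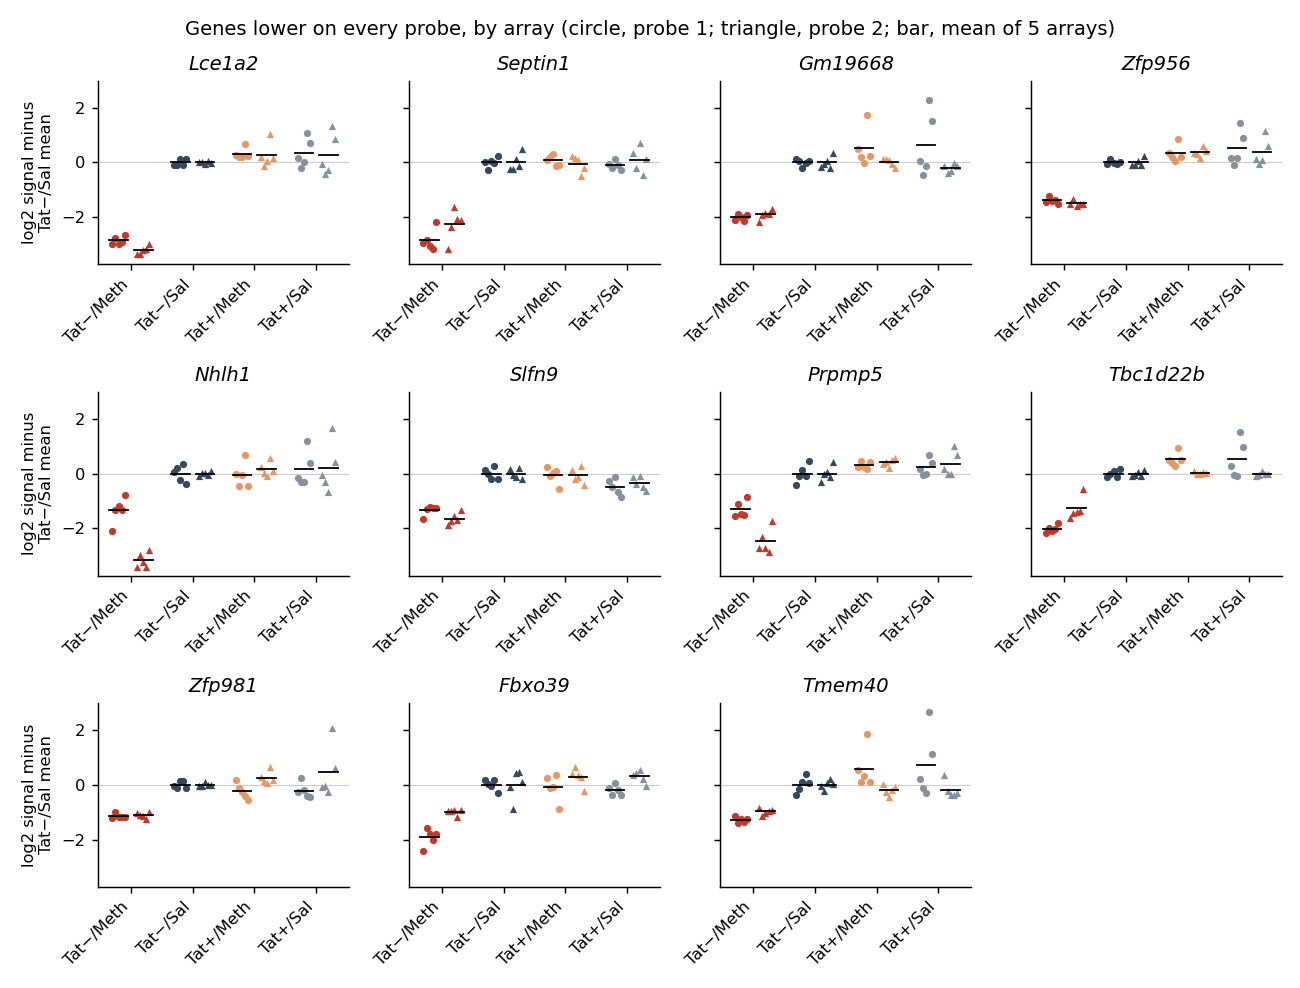
Log2 signal of each array less the Tat-/Sal mean of the same probe, for 11 of the 12 genes with the largest agreed falls among genes whose groups do not overlap, in the 4 groups of 5 mice; circles are probe 1, triangles probe 2 and bars group means. The Tat-/Meth means run from -0.97 log2 on a Tmem40 probe to -3.21 on a Lce1a2 probe, and the Tat+/Meth means lie nearer to both saline groups than to Tat-/Meth. The genes were chosen by their fall in the Tat-/Meth arrays, which favours such a gap.

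Agreed rises were smaller. Over the 464 genes the median of the agreed size, the smallest log2 fold change among the probes of a gene, was 0.30, and the largest among genes whose groups did not overlap was that of Cops7a, a subunit of the COP9 signalosome, which removes Nedd8 from cullins. Cops7a read 15.27, 14.996, 15.04, 15.15 and 15.07 in the Tat-/Meth mice and 14.53, 14.36, 14.37, 14.39 and 14.48 in the Tat-/Sal mice on probe 1 (0.68 ± 0.07 SE, adjusted p = 9.72e-08) and 10.11, 9.88, 9.87, 10.07 and 9.92 in the Tat-/Meth mice and 9.34, 9.37, 9.48, 9.14 and 9.28 in the Tat-/Sal mice on probe 2 (0.65 ± 0.13 SE, adjusted p = 0.000385). Every Tat-/Meth mouse was above every saline mouse on both probes, by 1.6-fold and 1.56-fold on average. Groups without overlap on any probe were found for 307 genes in this direction (8.36%), 270 of them among the 464.

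Genes of the synapse and of neuronal adhesion were among the 12 largest agreed rises. Htr2c, the serotonin 2C receptor, read 13.33, 13.11, 12.80, 12.80 and 13.002 in the Tat-/Meth mice and 12.63, 12.62, 12.28, 12.17 and 12.30 in the Tat-/Sal mice on probe 1 (0.61 ± 0.13 SE, adjusted p = 0.000915) and 7.11, 7.29, 6.93, 6.79 and 7.32 in the Tat-/Meth mice and 6.47, 6.41, 6.54, 6.73 and 6.60 in the Tat-/Sal mice on probe 2 (0.54 ± 0.14 SE, adjusted p = 0.00447). The groups did not overlap on either probe, although the lowest Tat-/Meth mouse and the highest saline mouse were close. In Tat+ mice the same probes differed by 0.38 and 0.35, which did not pass (adjusted p = 0.283 and 0.339), and the difference between the Meth effects did not pass either (adjusted p = 0.363 and 0.499). Ctnna2, alpha-N-catenin, which ties cadherins to actin at synapses, had 0.58 and 0.61, and Igsf9, an immunoglobulin-family adhesion protein of dendrites, 0.74 and 0.56.

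Others of the 12 act in metabolism and transcription. Isca1, which builds iron-sulphur clusters in mitochondria, read 14.79, 14.88, 14.82, 14.86 and 14.75 in the Tat-/Meth mice and 13.83, 14.21, 14.20, 14.17 and 14.19 in the Tat-/Sal mice on probe 1 (0.70 ± 0.08 SE, adjusted p = 5.22e-07) and differed by 0.60 ± 0.07 on probe 2. Phykpl, a lyase of phosphorylated hydroxylysine, had 0.63 and 0.83. Rbpj, the DNA-binding effector of Notch, had 0.87 and 0.55, and Tceanc2, with a domain of the elongation factor TFIIS, 0.54 and 0.74. Yipf1, of the Golgi, had 0.62 and 0.55, Ttc17, a tetratricopeptide protein, 0.62 and 0.63, Rps18, of the small ribosomal subunit, 0.54 and 0.72, and 2810410L24Rik, an uncharacterized transcript, 0.54 and 1.08. On its first probe the Ttc17 value of Tat-/Meth replicate 5 was 7.86, with the other 4 between 6.65 and 6.76. Rps18 belongs to a family with many processed copies, and shared signal was not tested.

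**Figure D4:**
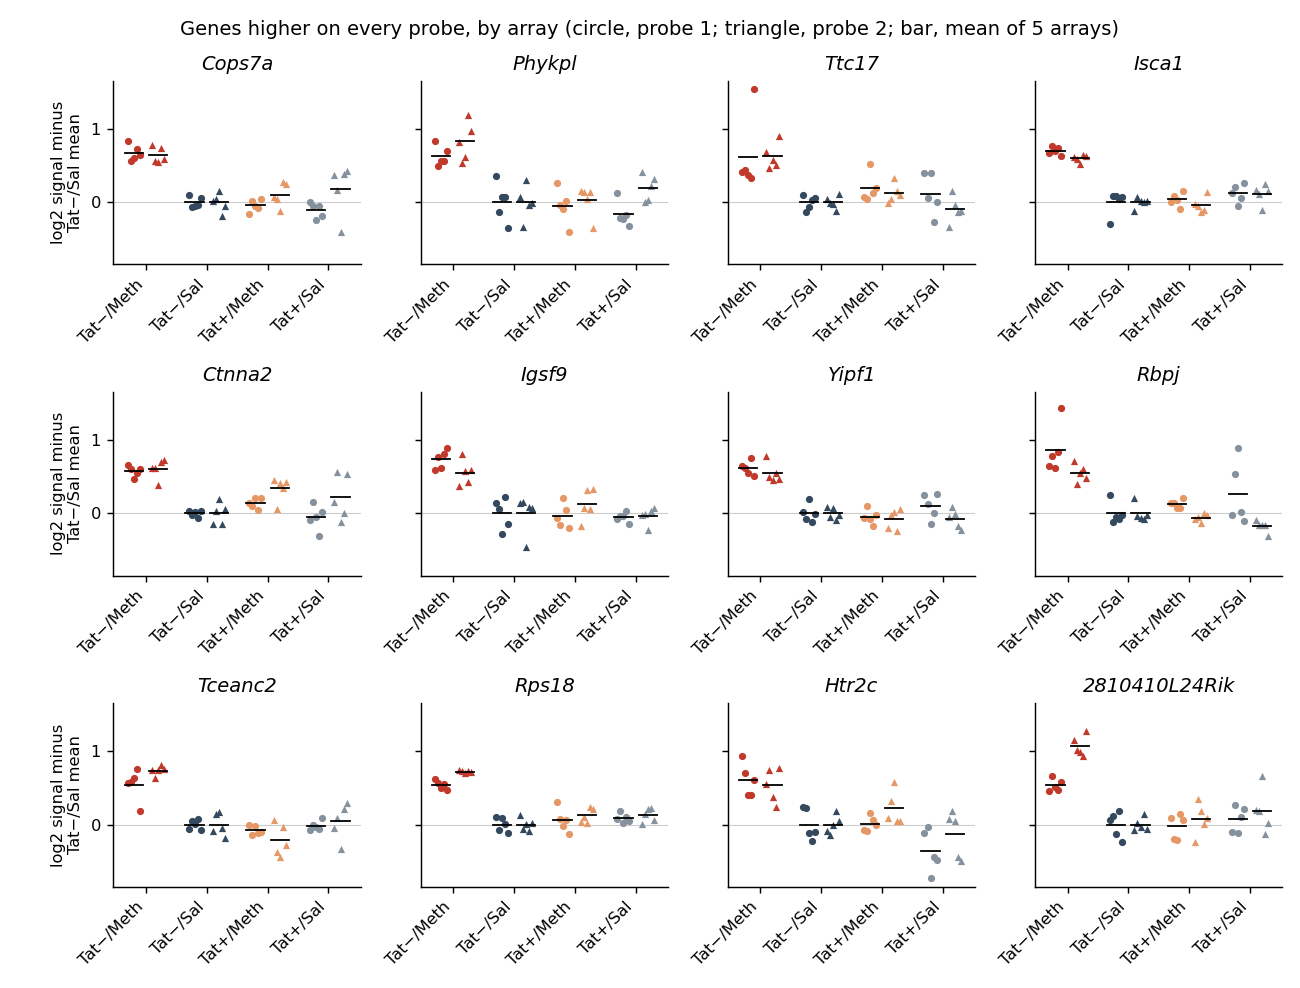
Log2 signal of each array less the Tat-/Sal mean of the same probe, for the 12 genes with the largest agreed rises among genes whose groups do not overlap; symbols as for the agreed falls, in the 4 groups of 5 mice. Mean differences between Tat-/Meth and Tat-/Sal run from 0.54 to 1.08 log2, both on probes of 2810410L24Rik, and the Tat+/Meth means lie below the Tat-/Meth means on every probe. The genes were chosen by their rise in the Tat-/Meth arrays, which favours such a gap.

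No agreed change was found among genes of the dopamine system, where over all member genes 12.6% were higher and 1.61% lower on every probe. Of 40 genes of the dopamine system and of striatal projection neurons, 39 were detected and 16 were members; none was higher or lower on every probe, 8 changed on some probes, 1 on probes in opposite directions and 7 on none. Their median log2 fold change was 0.07, against 0.14 over all members. Named here after their values were seen, Gnal, the G protein subunit that couples D1 receptors to adenylyl cyclase, had probes at -0.22 to 0.37, both past the test, Pdyn, the prodynorphin precursor, 0.09 to 0.51, Pde10a, the striatal cAMP phosphodiesterase, 0.12 to 0.22, and Adcy5, the main striatal adenylyl cyclase, -0.42 to 0.04. Drd1 and Drd2, the dopamine receptors of these neurons, were not members and were not examined. Of the 4 immediate early genes that were members, none agreed, with a median of 0.05.

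Among receptors and channels some members rose, to be read beside the 12.6% of all member genes that were higher on every probe. Among 11 glutamate receptor genes, 2 were higher on every probe, 5 on some and 4 on none. Gria4, an AMPA receptor subunit, read 10.22, 10.17, 10.17, 10.13 and 9.85 in the Tat-/Meth mice and 9.83, 9.85, 9.57, 9.80 and 9.69 in the Tat-/Sal mice on probe 1 (0.36 ± 0.08 SE, adjusted p = 0.000682) and differed by 0.26 ± 0.09 on probe 2. Grin3a, an NMDA receptor subunit, differed by 0.25 and 0.83, with a largest adjusted p of 0.0493, and lost its call in 22 of 30 alternative settings. Its groups overlapped on probe 1, and on probe 2 the Tat-/Meth mice lay between 6.37 and 6.71 except replicate 5, at 7.96. Of 7 genes of GABA signalling, Gabrg1, a GABA-A receptor subunit, rose (0.42 and 0.80). Of 16 potassium channel genes, Kcnf1 (0.51 and 0.52) and Kcnq5, an M-current channel (0.19 and 0.48), rose. None of 12 sodium and calcium channel genes agreed. Of 22 synaptic vesicle genes, Syn2, a synapsin that tethers vesicles, rose (0.37 and 0.17). Without scaling the mean changes of Gria4, Kcnq5 and Syn2 were below 0. With the sign kept, Syn2 lost its call in a further 15 of 30 alternative settings and Kcnq5 in 12.

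The few agreed changes of mitochondrial genes went in both directions. Of 23 members of oxidative phosphorylation, 2 were higher and 2 lower on every probe, 3 had probes in opposite directions and 12 changed on some probes, with a median of -0.05. Over all member genes 12.6% were higher, 1.61% lower, 8.38% opposite and 50.7% changed on some probes, with a median of 0.14. Cycs, cytochrome c, which carries electrons to complex IV, was higher on 3 probes, by 0.51, 0.39 and 0.29. On its first probe it read 14.96, 14.82, 14.79, 14.91 and 14.79 in the Tat-/Meth mice and 14.42, 14.29, 14.29, 14.24 and 14.44 in the Tat-/Sal mice, with no overlap. Cox7a2l, a factor that assembles respiratory supercomplexes, was higher by 0.61, 0.22 and 0.36, and its first probe read 14.72, 14.69, 14.71, 14.83 and 14.71 in the Tat-/Meth mice and 14.04, 14.13, 14.13, 14.16 and 14.17 in the Tat-/Sal mice. Uqcrq and Uqcrb, subunits of complex III, fell: Uqcrq differed by -0.30 and -0.96 and Uqcrb by -0.37, -0.66 and -0.22. Uqcrb lost its call in 12 of 31 alternative settings. Of the other complex III members, named after their values were seen, Uqcr10 had probes in opposite directions (-0.25 to 0.38) and Uqcrh had none past the test. Probe 2 of Uqcrq read 14.60, 14.72, 14.57, 14.60 and 14.74 in the Tat-/Meth mice and 15.66, 15.47, 15.76, 15.51 and 15.65 in the Tat-/Sal mice, with no overlap. Without scaling the mean changes of Cycs and Cox7a2l were -0.025 and -0.027, so their direction rests on the scaling. Of 9 genes of glycolysis and the citric acid cycle, Pdhb, of pyruvate dehydrogenase, fell (-0.16 and -0.28), though with the spike-in calibration its mean was 0.23. Acly, the ATP-citrate lyase that supplies acetyl-CoA, had 0.03 and 0.23, with neither probe past the test.

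Ribosomal protein genes formed the largest list. Of 52 members, 5 were higher and 2 lower on every probe, and 12 had probes in opposite directions, against 12.6%, 1.61% and 8.38% of all member genes. The risers included Rps18, Rpl26 (0.60, 0.38 and 0.42), Rps15 (0.24 and 0.21) and Rpl29 (0.20 and 0.18). Without scaling Rpl29 was lower on every probe, with a mean of -0.23, and the mean of Rps15 was -0.19. Rps24 fell by different amounts on its probes, with log2 fold changes of -0.36, -1.04 and -0.43. Probe 2 of Rps24 read 14.67, 14.87, 14.72, 14.79 and 14.93 in the Tat-/Meth mice and 15.80, 15.84, 15.93, 15.83 and 15.81 in the Tat-/Sal mice, the only one of the 3 to move by more than 2-fold. Rpl24 fell (-0.34 and -0.48), though with the spike-in calibration its mean was 0.14. Of 18 initiation factor genes, 4 were higher on every probe and none lower: Eif4g3, a scaffold of the cap-binding complex (0.70 and 0.45), Eif5 (0.52 and 0.33), Eif2d (0.27 and 0.52) and Eif4e, the cap-binding protein (0.32 and 0.24). On probe 1 of Eif4g3 the Tat-/Meth mice lay between 6.44 and 6.74 except replicate 5, at 7.84 (limma, adjusted p = 0.0443). Eif4g3 lost its call in 10 of 30 alternative settings. Eif4e lost its call with the sign kept in 12 of 30. Without scaling the means of Eif4e and Eif2d were -0.14 and -0.02. Of 5 genes of mTOR and S6 kinase, Rps6kb2, an S6 kinase, was higher (0.42 and 0.55).

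RNA processing genes gave the largest number of agreed rises for a list, 8 of 37 with none lower and a median of 0.22. Hnrnpab, an RNA-binding protein of the spliceosome and of mRNA transport, rose by 0.61 and 0.38, Prpf4b, a splicing kinase, by 0.56 and 0.37, Srsf10 by 0.98 and 0.33 and Snrpe, a core protein of spliceosomal particles, by 0.39 and 0.33. Of 27 histone and DNA modifying enzymes, 3 rose and 1 fell. Tet2, which oxidizes methylcytosine, rose by 0.30 and 0.46, Hdac10 by 0.40 and 0.29 and Hdac1, a histone deacetylase, by 0.26, 0.80 and 0.19, and Kat5, the Tip60 acetyltransferase, fell (-0.20 and -0.26). Without scaling the means of Tet2, Hdac10, Hdac1 and Snrpe were -0.04, -0.07, -0.0044 and -0.06. Over all member genes, 12.6% were higher and 1.61% lower on every probe.

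Some genes of protein quality control rose, to be read beside the 12.6% of all member genes that were higher on every probe. Of 11 proteasome genes, Psmd10 rose (0.31 and 0.40), and of 21 heat shock and unfolded protein response genes, Dnajc19, of mitochondrial protein import (0.54 and 0.44), and Dnajc24, of diphthamide synthesis (0.17 and 0.50), did.

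The sirtuins, NAD-dependent deacetylases that the study discussed, gave no agreed change. Sirt6, a nuclear sirtuin, had probe 1 at 10.56, 10.55, 10.51, 10.47 and 10.53 in the Tat-/Meth mice and 10.84, 10.93, 11.05, 10.96 and 11.32 in the Tat-/Sal mice (-0.50 ± 0.07 SE, adjusted p = 2.43e-05) and probe 2 at 7.47, 7.39, 7.56, 7.57 and 8.30 in the Tat-/Meth mice and 7.05, 6.92, 7.24, 6.91 and 7.54 in the Tat-/Sal mice (0.53 ± 0.15 SE, adjusted p = 0.00621). The first probe was lower in every Tat-/Meth mouse and the second was higher on average, with 2 Tat-/Meth mice inside the saline range, so the gene has no agreed direction. Sirt7 was at 0.32 and 0.38, with the first past the test, and Sirt4 at 0.20 and -0.32, with neither past it. The other 4 sirtuins had fewer than 2 qualifying probes. Ppara, a nuclear receptor of fatty acid oxidation, had log2 fold changes of -0.10, 0.14 and -1.39. Probe 3 of Ppara read 9.30, 9.39, 9.34, 9.19 and 9.47 in the Tat-/Meth mice and 10.66, 10.64, 10.87, 10.62 and 10.85 in the Tat-/Sal mice, while the other 2 overlapped between the groups.

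Cell type markers were examined with the same rule. Over all member genes 12.6% were higher and 1.61% lower on every probe, 50.7% changed on some probes, and the median was 0.14. Of 8 oligodendrocyte and myelin markers, Qdpr, dihydropteridine reductase, rose (0.25 and 0.24), 6 changed on some probes, and the median was 0.25. Of 6 astrocyte markers none agreed and 5 changed on some probes (median 0.21); Gfap, named here after its values were seen, had probes at 0.28 to 0.88. Of 5 microglial markers none agreed (median -0.02), and gene means over their probes ran from -0.77 to 0.61. None of 2 endothelial, 2 cortical, 5 striatal and 2 thalamic or midbrain members agreed. No interferon response gene of 4 agreed, and no choroid plexus or red blood cell marker was a member. In tissue RNA, fewer cells of a type and less RNA per cell cannot be told apart.

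**Figure D5:**
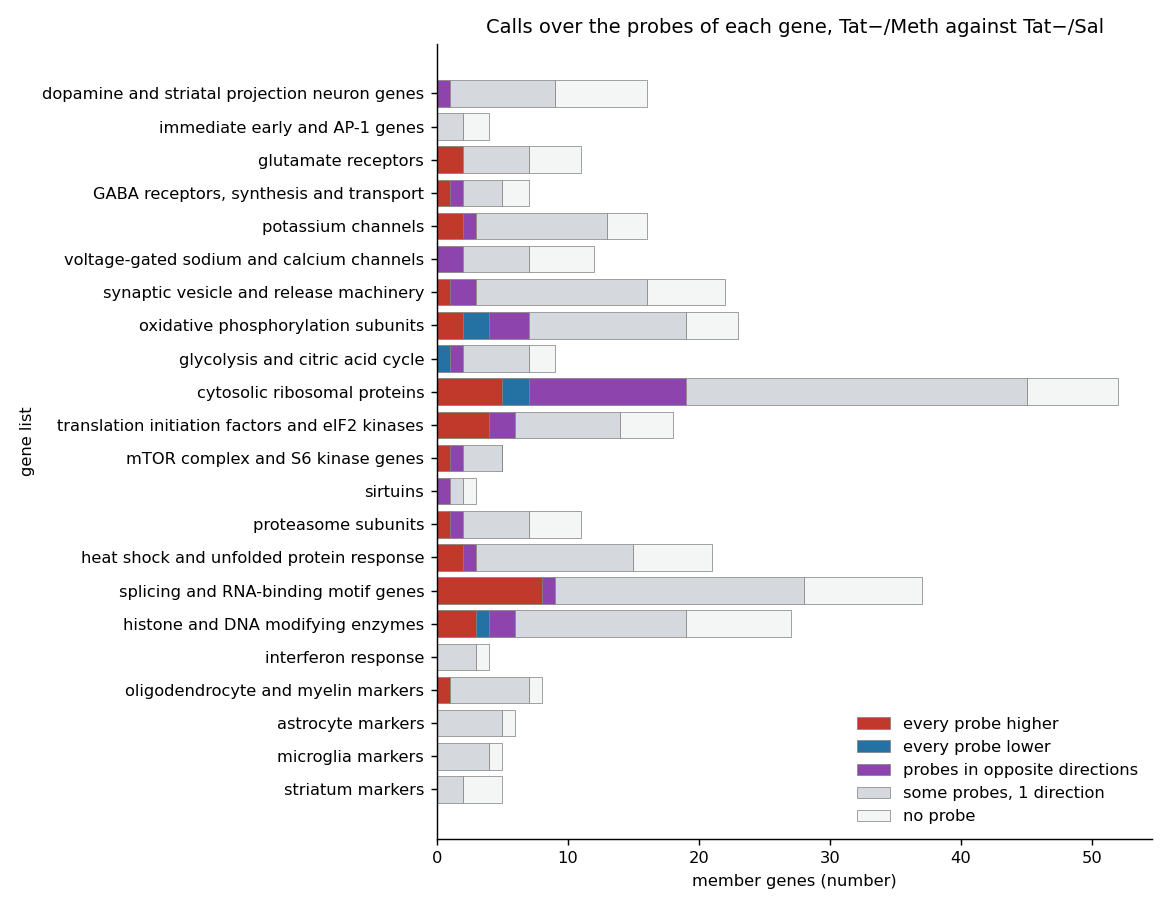
Member genes of each list with 3 or more members (horizontal axis, number of genes), coloured by whether every probe was higher, every probe lower, probes passed in opposite directions, some passed in 1 direction or none passed. Ribosomal protein genes hold 12 of 52 with probes in opposite directions, and splicing genes 8 of 37 higher on every probe.

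Features that the rule had not used were counted next. Of the 127 probes of the 59 lower genes, 103 (81.1%) bore the prefix of the catalogue series numbered 55, against 57.3% of the probes of the higher genes and 63.9% over all members. Among all probes of member genes, 3.43% of the 5163 of series 55 were lower by more than 2-fold, against 0.773% of the 1164 of series 51 and 0.558% of the 1255 of series 52. The medians in Tat- mice were 0.12, 0.21 and 0.21, and in Tat+ mice 0.00, -0.04 and -0.04. Zinc finger genes made up 6.78% of the lower genes (4 of 59), 4.09% of the higher genes and 3.13% of all members.

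RefSeq promoter windows, 250 bases before to 50 after the start (GRCm38.p6), were matched by symbol for 388 higher and 46 lower genes. The CCAAT box (CCAAT or its complement on the other strand) occurred in 167 of the 388 higher and 20 of the 46 lower genes (43.5%), against 37.9% of all 27025 promoters. The cAMP response element TGACGTCA occurred in 17 of the higher genes (4.38%), in 0 of 46 lower genes (exact 95% upper limit 7.71%) and in 1.88% of all. The AP-1 site TGACTCA occurred in 2.32% and 8.70% (4 of 46, exact 95% interval 2.42 to 20.8) against 5.17%, and TATAAA in 5.41% and 2.17% against 14.2%. Over all member genes the shares were 38.5%, 3.18%, 3.08% and 6.69% in the same order. The promoters of 2 genes that rose and 2 that fell on every probe are printed because they carry the results above, with matches of the 4 motifs in capitals, 5' to 3' on the strand of the gene. Htr2c (chrX:146962263-146962562, plus strand) holds the complement ATTGG, Isca1 (chr13:59769740-59770039, minus strand) and Nhlh1 (chr1:172057547-172057846, minus strand) each hold 2 matches of CCAAT or its complement, and Prpmp5 (chr6:132314694-132314993, minus strand) holds 1 match of TATAAA or its complement.
Htr2c: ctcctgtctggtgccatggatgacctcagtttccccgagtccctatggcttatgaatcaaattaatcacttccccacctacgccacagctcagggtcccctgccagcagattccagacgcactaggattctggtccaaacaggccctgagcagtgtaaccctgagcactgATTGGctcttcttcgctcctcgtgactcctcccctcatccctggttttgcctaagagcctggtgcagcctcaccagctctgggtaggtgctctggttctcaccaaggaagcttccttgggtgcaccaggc
Isca1: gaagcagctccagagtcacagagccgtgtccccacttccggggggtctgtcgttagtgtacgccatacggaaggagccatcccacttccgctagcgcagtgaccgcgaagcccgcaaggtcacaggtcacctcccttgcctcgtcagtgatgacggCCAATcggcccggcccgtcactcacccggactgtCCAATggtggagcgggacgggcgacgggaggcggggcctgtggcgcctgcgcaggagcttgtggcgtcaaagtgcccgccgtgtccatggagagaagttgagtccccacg
Nhlh1: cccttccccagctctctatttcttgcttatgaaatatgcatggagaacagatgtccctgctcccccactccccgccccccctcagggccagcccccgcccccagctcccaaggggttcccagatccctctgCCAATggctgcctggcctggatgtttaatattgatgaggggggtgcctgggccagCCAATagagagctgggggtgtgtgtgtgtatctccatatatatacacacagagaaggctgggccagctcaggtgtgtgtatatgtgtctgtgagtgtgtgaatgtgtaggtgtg
Prpmp5: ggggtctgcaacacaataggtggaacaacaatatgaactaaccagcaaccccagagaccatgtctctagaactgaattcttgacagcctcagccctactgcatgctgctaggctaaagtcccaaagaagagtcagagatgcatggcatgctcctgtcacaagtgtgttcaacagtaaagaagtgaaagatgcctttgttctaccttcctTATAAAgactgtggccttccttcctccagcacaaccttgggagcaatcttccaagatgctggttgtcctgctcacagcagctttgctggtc

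In Tat+ mice, whose Meth and saline arrays lay on slides 2 and 3, the same test found no probe of 28157 (0%) in either direction. No member gene of 3674 passed (0%), and the smallest adjusted p in limma was 0.075. At an unadjusted p under 0.05 were 3518 of the 28157 probes. Of the 3674 member genes, 108 had every probe at that level in 1 direction. The medians of the Meth effect in Tat+ mice over the 464 higher and 59 lower genes were -0.02 and 0.01. The difference between the Meth effects, Tat+ minus Tat-, was higher on every probe in 38 genes (1.03%) and lower on every probe in 259 (7.05%). That contrast contains the same Tat-/Meth and Tat-/Sal arrays and is not independent of the values above. Tat+/Meth and Tat-/Meth mice received the same drug but were hybridized on different slides.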

How the data were processed

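RNA of 20 mouse brain samples was labelled with Cy3 and hybridized to Agilent arrays, 1 sample per array, per the labels and file headers, whereas the methods of the study name another dye and array format. The deposited intensity values (gProcessedSignal) are those the authors' scanner software wrote after background subtraction, 62976 spots an array. The authors' series matrix, whose values are also intensity, served as an alternative. Depth does not apply, and the number of arrays limits the precision.

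Control spots and outlier spots were left out, spots of a probe averaged, log2 taken and each array's 75th percentile subtracted, with the mean 75th percentile of all arrays added back to keep the values positive. Of 55681 probes, 27650 were named by matching accessions to RefSeq (GRCm38.p6), giving 20968 symbols. All 20 arrays entered 1 limma fit (lmFit, eBayes; limma 3.58.1, R 4.3.3) with a mean per group, and p-values were adjusted by Benjamini-Hochberg over the 28157 qualifying probes. Exact two-sided permutation tests compared single array measures, 5 arrays against 5. The text names the 12 genes per direction with the largest agreed size among genes whose groups did not overlap, up to 4 agreed genes per list and direction, the 6 widest gaps between probes, and members the study discussed. Members and lists were chosen with earlier results of these data known. Each sample bears its own number in the labels and was taken as a separate mouse. Some genes are not reported here. The scripts were tested on simulated data. Alternatives covered scaling, background, filters, slide, replicate block, threshold, test and agreement rule. The grid of the files is of another build, so gene positions are not given, only those of the RefSeq promoters.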

Additional observations from a re-analysis of the deposited data

Results flagged for a closer look

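The genes below were named above for an agreed difference between Tat-/Meth and Tat-/Sal, a choice that favours a difference here. In them the Meth effect differed between Tat+ and Tat- mice on every probe (limma interaction, Tat+ minus Tat-, mean over probes, log2), a contrast that contains the Tat-/Meth arrays of slide 1. It was above 0 in Fbxo39 (1.51), Gm19668 (1.998), Lce1a2 (3.003), Nhlh1 (2.12), Prpmp5 (1.95), Rpl24 (0.41), Rps24 (0.63), Septin1 (2.56), Slfn9 (1.84), Tbc1d22b (1.67), Uqcrq (0.62), Zfp956 (1.34). It was below 0 in 2810410L24Rik (-0.91), Cops7a (-0.67), Ctnna2 (-0.44), Dnajc24 (-0.42), Eif2d (-0.55), Hdac10 (-0.45), Hnrnpab (-0.46), Isca1 (-0.77), Phykpl (-0.76), Prpf4b (-0.71), Qdpr (-0.48), Rbpj (-0.72), Rps15 (-0.39), Rps18 (-0.65), Rps6kb2 (-0.58), Tceanc2 (-0.80), Tet2 (-0.48), Yipf1 (-0.66).

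In some genes 1 mouse lay far from the other 4 of its group in the mean over probes, given as its gap to the nearest over the range of the group, which chance gives in about 1 in 20 groups. These were Ctnna2 (Tat-/Meth replicate 3 low, 0.761), Eif2d (Tat-/Meth replicate 5 low, 0.734), Hdac1 (Tat-/Sal replicate 1 high, 0.843), Isca1 (Tat-/Sal replicate 1 low, 0.824), Rbpj (Tat-/Sal replicate 1 high, 0.823), Rpl29 (Tat-/Meth replicate 2 high, 0.812), Rps24 (Tat-/Sal replicate 4 low, 0.748), Sirt6 (Tat-/Meth replicate 5 high, 0.86), Tbc1d22b (Tat-/Meth replicate 5 high, 0.725), Ttc17 (Tat-/Meth replicate 5 high, 0.845). Over the many genes named above, chance alone would give some such cases. Tat-/Meth replicate 5 also lay apart from the other 4 Tat-/Meth arrays in negative-control signal (0.966), spike-in slope (0.857) and the percentage of probes well above background (0.736).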

How the results depend on the processing

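As reported, with every probe of a gene required to pass, the counts were 464 genes higher, 59 genes lower, 0 above 2-fold higher, 11 above 2-fold lower, 308 opposite, 1862 in part, 38 higher by interaction, 259 lower by interaction, 10.2% of list members higher, 1.86% of list members lower, with a median log2 fold change of 0.14. Scaling to the median gave 189 genes higher, 23 genes lower, 81 opposite, 11 higher by interaction, 69 lower by interaction, 2.48% of list members higher, 0% of list members lower and a median of 0.26. No scaling gave 0 genes higher, 704 genes lower, 23 above 2-fold lower, 34 opposite, 436 higher by interaction, 0 lower by interaction, 0% of list members higher, 25.5% of list members lower and a median of -0.28. The limits of the methods (adjusted p under 0.01, 3-fold) gave 0 genes higher, 3 genes lower, 3 above 2-fold lower, 0 opposite, 81 in part, 3 higher by interaction, 0 lower by interaction, 0% of list members higher and 0% of list members lower. The 1.5-fold limit gave 8 genes higher, 23 genes lower, 21 opposite, 643 in part, 22 lower by interaction, 0% of list members higher and 0% of list members lower. Testing the mean over the probes gave 1324 genes higher, 384 genes lower, 47 above 2-fold lower, 282 higher by interaction, 938 lower by interaction, 30.7% of list members higher and 14.3% of list members lower. The brightest probe alone gave 1407 genes higher, 477 genes lower, 6 above 2-fold higher, 97 above 2-fold lower, 359 higher by interaction, 932 lower by interaction, 31.7% of list members higher and 20.8% of list members lower. Genes with 3 or more probes gave 34 genes higher, 9 genes lower, 0 above 2-fold lower, 102 opposite, 375 in part, 6 higher by interaction, 10 lower by interaction and 6.17% of list members higher. Spike-in calibration, chosen after seeing the data, gave 889 genes higher, 703 lower by interaction, 32.6% of list members higher and a median of 0.22. Cyclic loess, also chosen after seeing the data, gave 225 genes higher, 113 genes lower, 63 higher by interaction, 134 lower by interaction and a median of 0.038. Slide as a random block gave 422 lower by interaction. It cannot separate slide from treatment, because slide 1 held all Tat-/Meth arrays and no other group. The methods' t-test without adjustment gave 16.8% of list members higher. Quantile normalization gave 0.932% of list members lower. Without scaling the mean log2 fold change turned negative in Cox7a2l (-0.0268), Cycs (-0.025), Dnajc24 (-0.0881), Eif2d (-0.0247), Eif4e (-0.14), Gria4 (-0.11), Hdac1 (-0.00437), Hdac10 (-0.0741), Kcnq5 (-0.0814), Psmd10 (-0.0642), Qdpr (-0.18), Rpl29 (-0.23), Rps15 (-0.19), Snrpe (-0.0603), Syn2 (-0.15), Tet2 (-0.0403). Of these genes, Rpl29 alone was then lower on every probe. With spike-in calibration the mean log2 fold change turned positive in Pdhb (0.23) and Rpl24 (0.14). Leaving out each array in turn gave 377 to 448 genes higher, 51 to 72 genes lower, 0 above 2-fold higher, 11 to 13 above 2-fold lower, 266 to 306 opposite, 1801 to 1857 in part, 32 to 51 higher by interaction, 198 to 275 lower by interaction, 6.83 to 10.2% of list members higher, 1.24 to 2.17% of list members lower, with a median from 0.13 to 0.15. With the replicate block, 513 genes were higher and 64 lower, 451 and 58 of them as reported. The same-numbered mice correlated at 0.07, 0.08, -0.07, 0.16 and 0.21. The best partner bore the same number for replicates 2, 4 and 5, and another number for replicates 1 and 3. Whether the numbers pair the samples was not tested, and the comparison as reported did not pair them. Lce1a2, Septin1 and Gm19668 kept their call in all 30 settings, and Grin3a lost it in 22. With the sign kept, Syn2 lost it in 15 of 30, Eif4e and Kcnq5 in 12 of 30, Rps15 in 11 of 30 and Uqcrb in 12 of 31. Syn2, Eif4e, Kcnq5 and Rps15 also turned negative without scaling, as given above. Gene symbols from the scanner files were not run as an alternative because the columns used here hold none.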

Other observations

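The values of Wdfy1 probe 2, for which the groups overlapped, spread widely within both groups, with 10.53, 10.57, 11.83, 12.52 and 11.80 in Tat-/Meth and 11.42, 10.23, 10.10, 11.44 and 11.58 in Tat-/Sal. Gapdh, a glycolytic enzyme often used as a reference gene, had 7 probes from -0.33 to 0.50 log2 and was named after its values were seen.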
